A study of Mus musculus with 6 samples.

Results

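The integrated stress response regulators described here are 10 genes, Atf4, Atf5, Ddit3, Trib3, Chac1, Sesn2, Ppp1r15a, Cebpg, Nupr1 and Atf3, out of 54532 genes in the deposited expression table. They are taken from the table by gene symbol, with no threshold on their values, although earlier results of these data were known when the list was drawn up, and every one of them was found in the table and exceeded 1 TPM in all 6 libraries. In LPS-stimulated bone-marrow-derived macrophages (BMDMs), metformin pretreatment was followed by higher transcript levels of 8 of the 10. Trib3 led at 13.2 times the mean level with LPS alone, before Sesn2 at 5.28 times and Ddit3 at 3.82 times. The cut-offs were an adjusted p-value under 0.01 and a log2 fold change of at least 0.7. Of all tested genes, 4.19% were called higher by them. Nupr1 and Atf3 did not pass both cut-offs in that comparison. LPS alone moved the same genes in different directions, with Nupr1 at 18.3 times and Ppp1r15a at 5.69 times, and Sesn2 at 0.17 times, the untreated mean level. The median tested gene was itself at a log2 fold change of -0.48 in this comparison. With median-ratio scaling of the libraries Sesn2 stayed lower, at -1.82, but short of the fold cut-off of 2.

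The series measured poly-A RNA by RNA-seq in primary BMDMs of wild-type C57BL/6 mice, which are macrophages grown from bone marrow in medium conditioned by L929 cells, a fibroblast line that secretes the growth factor M-CSF. LPS (lipopolysaccharide), from the outer membrane of Gram-negative bacteria, is sensed by macrophages through TLR4, and metformin is a biguanide diabetes drug that inhibits mitochondrial complex I. There were 3 groups of 2 libraries each: untreated cells, cells stimulated for 2 h with LPS at 100 ng/ml, and cells given 5 mM metformin for 6 h ahead of the identical LPS stimulation (Met + LPS). The comparison of Met + LPS with LPS addresses how metformin pretreatment alters the early transcript response to LPS. No library received metformin alone, so that an effect of metformin on unstimulated cells cannot be told apart from an effect on the LPS response. Cells were seeded in duplicate, and nothing states that the duplicates came from different mice, so that p-values measure the spread between these libraries, which may be technical.

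The integrated stress response is a pathway in which any of the kinases HRI, PKR, PERK or GCN2, each sensing a different stress, phosphorylates the translation factor eIF2α. General translation then falls, while a few messages with upstream open reading frames, Atf4 above all, are translated better. The ATF4 protein, usually together with C/EBP family partners, binds composite C/EBP-ATF elements and switches on genes for amino acid supply, redox balance and, under lasting stress, cell death. Transcript levels, as measured here, record neither eIF2α phosphorylation nor the amount of ATF4 protein.

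Values are TPM, a unit that divides the reads of a gene by its length and brings every library to the same total. The reads on genes, recovered from the TPM values and exon lengths, ranged from 25457016 to 30762755 per library. Among the members, Chac1 rested on the fewest reads, 19 to 62 per library, followed by Trib3 with 66 to 1168, Sesn2 with 110 to 682 and Nupr1 with 117 to 2995. All 8 macrophage markers examined, among them Csf1r, Adgre1, Cd68 and Lyz2, were present, with summed levels of 44166 to 46080 TPM in untreated, 35148 to 35860 TPM in LPS and 29186 to 29305 TPM in Met + LPS libraries. Most of it came from Lyz2, with means of 34912, 26835 and 21292 TPM in that order. Means of Csf1r, Itgam and Mertk also fell in that order. Those of Adgre1 (1543, 1717 and 1358 TPM) and Spi1 (468, 609 and 422 TPM) were highest with LPS. Cd68 was at 6029, 4777 and 4783 TPM, and Fcgr1 at 165, 165 and 74.4 TPM. The 3 B cell markers and the globin genes Hba-a1 and Hbb-bs, markers of erythroid cells, stayed under 1 TPM in all libraries, and Hbb-bs was listed at 0. Of 5 neutrophil markers, Ly6g did not exceed 0.14 TPM, and the summed level was 18.3 to 19.8 TPM in untreated, 7.83 to 13.4 TPM in LPS and 18.4 to 19.7 TPM in Met + LPS libraries, mostly from Elane. The 5 T or NK cell markers summed to 6.23 to 6.85 TPM, 3.81 to 4.30 TPM and 2.72 to 3.66 TPM in the same order, nearly all of it from Cd4, with Cd3g listed at 0. Of 3 dendritic cell markers, Flt3 stayed at or under 0.107 TPM, and the sums were 0.263 to 0.303 TPM, 2.00 to 2.13 TPM and 1.98 to 2.06 TPM. Of 4 fibroblast markers, Col1a1, Col1a2 and Dcn stayed under 1 TPM in all libraries, and the sums were 0.614 to 0.653 TPM, 2.34 to 3.02 TPM and 1.69 to 1.81 TPM. The part of these cell types in the results was not tested. In bulk RNA, fewer cells of a type and less RNA per cell cannot be told apart.

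Because ATF4 and its partners act through short DNA elements, the promoter windows of the members were searched for the C/EBP-ATF composite element TGATGNAA, the cyclic AMP response element TGACGTCA and the AP-1 element TGANTCA, on both strands. The windows, from RefSeq (GRCm38.p6), run from 250 bases before to 50 bases after an annotated start, and all 10 members had at least 1. The composite element was found in 4 of the 10 members, against 4.51% of the 27025 genes with a window. The cyclic AMP element was found in 1 member (2.03% of genes) and the AP-1 element in 1 (8.97% of genes). No window of Atf4, Atf5, Sesn2 or Cebpg held any of them, which says only that these letters are not in these windows. The 30 bases around each match are printed on the strand of the gene with the match in capitals, so that the composite element, which lay on the other strand in all 4 genes, reads as its reverse complement.
Trib3, chr2:152344028-152344057, minus strand: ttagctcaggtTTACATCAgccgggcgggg
Chac1, chr2:119351038-119351067, plus strand: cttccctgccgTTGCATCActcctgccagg
Atf3, chr1:191183425-191183454, minus strand: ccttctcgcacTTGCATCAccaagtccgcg
Nupr1, chr7:126625562-126625591, minus strand: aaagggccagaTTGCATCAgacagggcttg
Ppp1r15a, chr7:45526262-45526291, minus strand: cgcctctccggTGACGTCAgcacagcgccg
Ddit3, chr10:127290543-127290572, plus strand: cgcgcgcaTGACTCActcacctcctccgcg
The match lay 193 bases before the RefSeq start in Chac1, 110 before it in Atf3 and Nupr1, 12 before it in Ppp1r15a and 242 before it in Ddit3. In Trib3 it lay 15 bases after the RefSeq start but 7 bases before the start of the gene in the annotation of the expression table. The Nupr1 match lies inside an exon of a longer annotated Nupr1 transcript, and the Atf3 window lies within the span of the gene, since other Atf3 transcripts start farther upstream. The matches are descriptions of sequence, and binding was not measured.

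The same 8 letters lie in the window of Chac1, which passed both cut-offs after metformin pretreatment, and in those of Atf3 and Nupr1, which did not. For Chac1 and Atf3 the stretches around them that lie outside annotated exons are given in full for comparison. The Nupr1 match lies inside an exon.
Chac1, chr2:119350992-119351228, plus strand: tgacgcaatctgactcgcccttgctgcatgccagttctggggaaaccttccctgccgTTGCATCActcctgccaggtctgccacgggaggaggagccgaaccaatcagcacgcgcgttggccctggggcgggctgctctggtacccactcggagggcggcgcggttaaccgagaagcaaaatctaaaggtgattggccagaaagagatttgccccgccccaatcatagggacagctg
Atf3, chr1:191183341-191183583, minus strand: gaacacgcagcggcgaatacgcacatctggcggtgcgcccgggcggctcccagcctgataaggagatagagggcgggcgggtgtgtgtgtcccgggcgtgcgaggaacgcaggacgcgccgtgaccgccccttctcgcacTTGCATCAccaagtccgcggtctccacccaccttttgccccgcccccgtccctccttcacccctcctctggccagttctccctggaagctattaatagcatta

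Differences between groups were tested with limma on log2(TPM + 1) over 12755 genes, with Benjamini-Hochberg adjustment, and every adjusted p-value below is from that fit. A gene was counted as called when its adjusted p-value was under 0.01 and its log2 fold change was at least 0.7 in size between Met + LPS and LPS, or at least 2 in either comparison with untreated cells. The pseudocount makes fold changes of low genes such as Chac1 smaller than those of the TPM themselves.

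Between Met + LPS and LPS, 8 of the 10 members were called higher, against 4.19% of all tested genes, and 0 were called lower, against 4.09%. At an adjusted p-value under 0.01 without a fold cut-off, 9 were higher and 0 lower, against 14.5% and 18.0% of tested genes, and Atf3, among those 9, did not pass in 9 of 14 alternatives. The members' median log2 fold change was 1.16, and that of all tested genes was -0.03.

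Between LPS and untreated cells, 2 members were called higher and 1 lower, against 3.72% and 2.37% of tested genes. Without the fold cut-off, 3 were higher and 6 lower, against 16.2% and 60.1% of tested genes, and Chac1, among the 6, did not pass in 11 of 13 alternatives. The median tested gene itself was at -0.48 in this comparison, and the members' median was -0.39.

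Between Met + LPS and untreated cells, 2 members were called higher and 0 lower, against 3.18% and 2.16% of tested genes, and without the fold cut-off 7 were higher and 0 lower, against 16.3% and 58.8%. The median log2 fold change was 0.76 for the members and -0.48 for all tested genes. All comparisons share libraries, each pair of them 1 group, so that their values are not independent of each other.

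**Figure D1:**
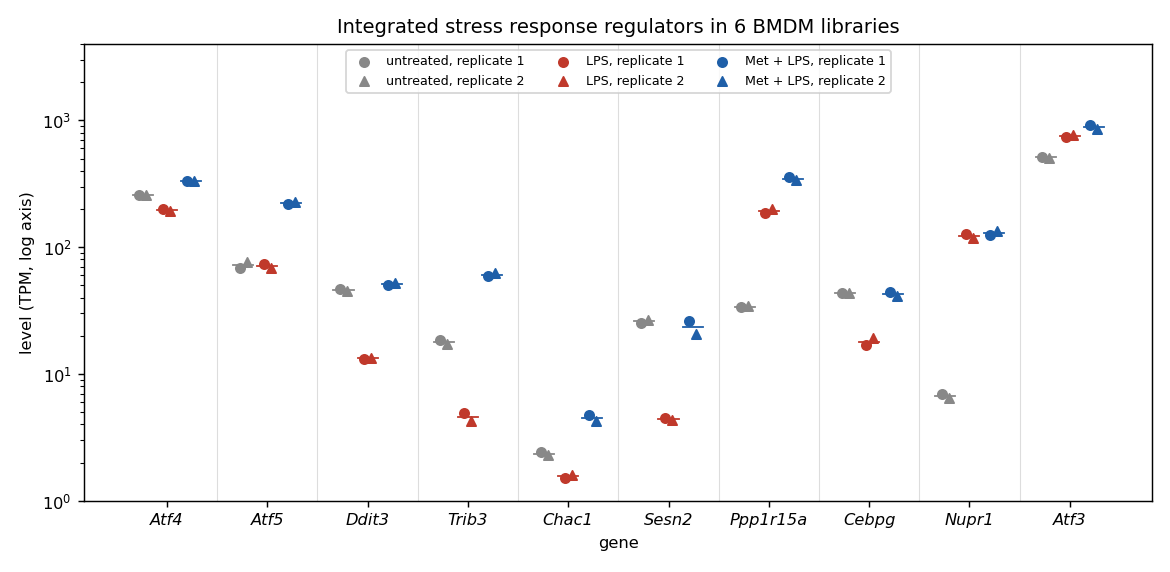
The level of each member in each of the 6 libraries, in TPM on a log axis. Points are libraries (circle, replicate 1; triangle, replicate 2), short lines are group means, and colours are untreated, LPS and Met + LPS. Replicates lie close together, and Nupr1 is at 118 to 135 TPM in all 4 LPS-treated libraries. For the other members both Met + LPS libraries sit above both LPS libraries, Atf3 included, which was under the fold cut-off. How many of all tested genes separate in this way was not counted, so that the separation only describes the plot.

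Atf4 (ENSMUSG00000042406, chromosome 15, 80255184 to 80257541 in GRCm38), the transcription factor at the centre of the pathway, measured 258 and 258 TPM in the untreated libraries, 198 and 194 TPM with LPS and 331 and 334 TPM with Met + LPS. Both Met + LPS libraries were the highest and both LPS libraries the lowest, without overlap between groups. Met + LPS over LPS gave a log2 fold change of 0.75 (95% interval 0.68 to 0.83, adjusted p = 1.5e-05), just above the cut-off of 0.7. Against untreated cells LPS libraries were 0.39 lower on the log2 scale (log2 fold change -0.39, adjusted p = 2.4e-05), a value whose sign turned with median-ratio scaling of the libraries (0.14, adjusted p = 0.0044). Met + LPS libraries were above untreated ones by 0.36 (adjusted p = 3.3e-05).

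Atf5 (ENSMUSG00000038539, chromosome 7, 44812256 to 44816658), a close relative of Atf4 whose message also carries upstream open reading frames, measured 68.2 and 76.3 TPM in untreated cells, 73.2 and 68.5 TPM with LPS and 217 and 227 TPM with Met + LPS. Untreated and LPS libraries overlapped, and both Met + LPS libraries stood about 3.14 times above LPS. The log2 fold change of Met + LPS over LPS was 1.64 (95% interval 1.48 to 1.79, adjusted p = 1.4e-05). With LPS alone the log2 fold change was -0.03 (95% interval -0.18 to 0.13, adjusted p = 0.71) and it was 0.50 after median-ratio scaling (adjusted p = 0.00039). Of its exonic length, 4.11% overlaps Il4i1 and Nup62 on the other strand, and the library kit does not mark strand.

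Ddit3 (ENSMUSG00000025408, chromosome 10, 127290774 to 127296288) encodes CHOP, an ATF4-induced C/EBP family factor linked to cell death under lasting stress. It measured 46.9 and 45.0 TPM in untreated cells, 13.2 and 13.4 TPM with LPS and 49.96 and 51.8 TPM with Met + LPS. The LPS libraries were far below both other groups, whose ranges were close but did not overlap. The log2 fold change was -1.71 for LPS over untreated (adjusted p = 2.3e-07, short of the fold cut-off of 2) and 1.86 for Met + LPS over LPS (95% interval 1.75 to 1.97, adjusted p = 4.4e-06). Met + LPS and untreated cells differed by 0.14 (95% interval 0.04 to 0.25), which did not pass the test (adjusted p = 0.021), and by 0.68 after median-ratio scaling (adjusted p = 2e-05). A further gene entry with the same symbol (ENSMUSG00000116429), whose 105 exonic bases lie inside those of Ddit3 and make up 6.13% of its exonic length, was listed at 0 in all libraries. Another 3.97% is shared with Mars on the other strand.

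Cebpg (ENSMUSG00000056216, chromosome 7, 35046422 to 35056573), a short C/EBP factor that dimerises with ATF4, measured 43.7 and 43.5 TPM in untreated cells, 16.9 and 19.2 TPM with LPS and 44.7 and 41.0 TPM with Met + LPS. The LPS libraries were the lowest, and the Met + LPS libraries enclosed the untreated ones. On the log2 scale Met + LPS over LPS was 1.21 (95% interval 1.04 to 1.38, adjusted p = 4.8e-05), and that of LPS over untreated was -1.23 (adjusted p = 7e-06), short of its fold cut-off. Met + LPS over untreated was -0.02 (95% interval -0.19 to 0.15, adjusted p = 0.76), and 0.51 after median-ratio scaling (adjusted p = 0.00065).

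Atf3 (ENSMUSG00000026628, chromosome 1, 191170296 to 191218039), a stress- and TLR-inducible factor known in macrophages as a brake on inflammatory genes, was the most abundant member in every library. It measured 517 and 505 TPM in untreated cells, 734 and 771 TPM with LPS and 926 and 851 TPM with Met + LPS. The groups did not overlap, although the difference between LPS and Met + LPS was small beside those of the other factors. On the log2 scale Met + LPS over LPS was 0.24 (95% interval 0.12 to 0.36, adjusted p = 0.0072), which lay under the fold cut-off of 0.7. The adjusted p-value was not under 0.01 in 9 of 14 alternatives, among them the replicate block (0.012), the compared groups alone (0.011), no filter (0.034) and 5 fits that each left out 1 library (0.011 to 0.036), and it was 4.7e-05 with limma voom. LPS over untreated was 0.56 (adjusted p = 4.8e-05) and Met + LPS over untreated 0.80 (adjusted p = 8.9e-06), both short of the fold cut-off of 2.

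Nupr1 (ENSMUSG00000030717, chromosome 7, 126623249 to 126630861), a small stress-induced chromatin protein, measured 6.91 and 6.50 TPM in untreated cells, 127 and 118 TPM with LPS and 125 and 135 TPM with Met + LPS. Both LPS-treated groups were far above untreated cells and overlapped each other. LPS over untreated gave a log2 fold change of 4.002 (95% interval 3.86 to 4.14, adjusted p = 1.8e-08), the largest among the members in this comparison. Met + LPS over LPS was 0.09 (95% interval -0.06 to 0.23, adjusted p = 0.27), an interval that lies wholly under the fold cut-off of 0.7.

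**Figure D2:**
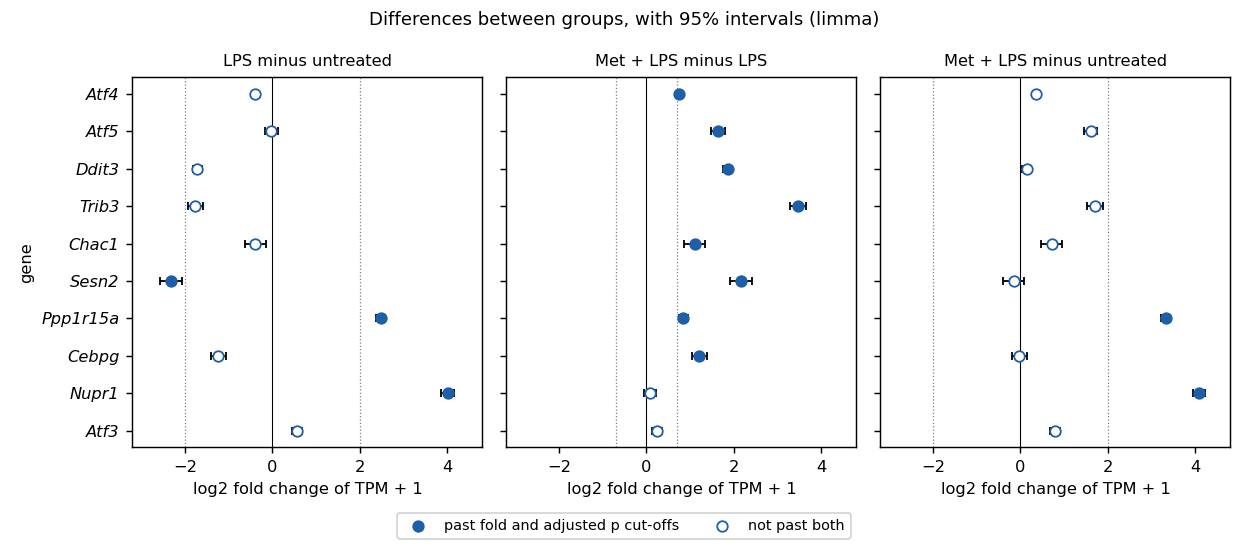
Log2 fold changes of TPM + 1 for the 10 members in the 3 comparisons, with 95% intervals from limma as horizontal bars; filled points passed both cut-offs, and dotted lines mark the fold cut-off of each comparison (0.7 in the middle panel, 2 in the others). The middle panel has 8 filled points, all to the right of 0, and the left panel has filled points on both sides of 0, Sesn2 at -2.31 and Ppp1r15a and Nupr1 at 2.47 and 4.002.

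The remaining 4 members are effectors that feed back on the pathway or on metabolism. Trib3 (ENSMUSG00000032715, chromosome 2, 152337422 to 152344032), a pseudokinase induced by ATF4 and CHOP that in turn restrains them, had the largest difference between Met + LPS and LPS among the members. It measured 18.6 and 17.1 TPM in untreated cells, 4.88 and 4.26 TPM with LPS and 58.9 and 62.1 TPM with Met + LPS. The groups were widely separated, with LPS lowest and Met + LPS highest. The log2 fold change was 3.47 for Met + LPS over LPS (95% interval 3.29 to 3.65, adjusted p = 4.4e-06), -1.76 for LPS over untreated (adjusted p = 2e-06) and 1.71 for Met + LPS over untreated (adjusted p = 2.2e-06). The last was 2.24 with median-ratio scaling, past the fold cut-off of 2 that it missed as deposited.

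Sesn2 (ENSMUSG00000028893, chromosome 4, 132492032 to 132510501), a leucine-binding inhibitor of mTORC1 signalling that is also a p53 target, measured 25.2 and 26.6 TPM in untreated cells, 4.50 and 4.34 TPM with LPS and 25.96 and 20.7 TPM with Met + LPS. LPS libraries were the lowest by a wide margin, and the Met + LPS libraries, which differed more between replicates relative to their mean than those of the other members, overlapped the untreated range. LPS over untreated was -2.31 on the log2 scale (95% interval -2.56 to -2.07, adjusted p = 2.4e-06) and Met + LPS over LPS was 2.16 (95% interval 1.91 to 2.41, adjusted p = 2.4e-05). With median-ratio scaling the first became -1.82 (adjusted p = 8.4e-06) and no longer reached the fold cut-off. Met + LPS over untreated was -0.16 (95% interval -0.40 to 0.09, adjusted p = 0.20), with the opposite sign after median-ratio scaling (0.37, adjusted p = 0.015) and -0.31 without the first Met + LPS library (adjusted p = 0.0092).

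Chac1 (ENSMUSG00000027313, chromosome 2, 119351229 to 119354381) encodes an enzyme that degrades glutathione and was the least abundant member in the LPS and Met + LPS libraries and in untreated cells alike. It measured 2.41 and 2.30 TPM in untreated cells, 1.52 and 1.59 TPM with LPS and 4.77 and 4.28 TPM with Met + LPS. The order of the groups was that of Trib3, without overlap, at a much lower level. The log2 fold change of Met + LPS over LPS was 1.11 (95% interval 0.87 to 1.35, adjusted p = 0.00024), while the ratio of the mean TPM was 2.90. LPS over untreated was -0.39 (adjusted p = 0.0087), but -0.04 after median-ratio scaling (adjusted p = 0.73), and with limma voom on the recovered reads it was -0.57 (adjusted p = 0.079). The adjusted p-value of this comparison was not under 0.01 in 11 of 13 alternatives, all 6 fits with a library left out (0.014 to 0.063) and the replicate block (0.015) included. Met + LPS over untreated was 0.72 (adjusted p = 0.00048).

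Ppp1r15a (ENSMUSG00000040435, chromosome 7, 45522916 to 45526268) encodes GADD34, the inducible subunit that directs protein phosphatase 1 to eIF2α and so ends the response. It measured 33.5 and 34.4 TPM in untreated cells, 187 and 199 TPM with LPS and 354 and 340 TPM with Met + LPS. The groups rose from untreated to LPS to Met + LPS, without overlap. Log2 fold changes were 2.47 for LPS over untreated (95% interval 2.37 to 2.58, adjusted p = 3.5e-08), 0.84 for Met + LPS over LPS (95% interval 0.74 to 0.95, adjusted p = 2.9e-05) and 3.32 for Met + LPS over untreated (adjusted p = 1.4e-08).

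Ordered by mean level per length, untreated cells ran from Atf3 (511 TPM) and Atf4 (258 TPM) through Atf5, Ddit3, Cebpg, Ppp1r15a, Sesn2 and Trib3 (17.8 TPM) to Nupr1 (6.70 TPM) and Chac1 (2.36 TPM). With LPS, Atf3 (752 TPM) was followed by Atf4 (196 TPM) and Ppp1r15a (193 TPM), whose libraries overlapped, then by Nupr1 (122 TPM), Atf5 (70.9 TPM), Cebpg (18.0 TPM) and Ddit3 (13.3 TPM), and Trib3 and Sesn2 (4.57 and 4.42 TPM) overlapped at the low end above Chac1. With Met + LPS, Ppp1r15a (347 TPM) and Atf4 (332 TPM) followed Atf3 (889 TPM), and then came Atf5 (222 TPM), Nupr1 (130 TPM), Trib3 (60.5 TPM), Ddit3 (50.9 TPM), Cebpg (42.9 TPM), Sesn2 (23.3 TPM) and Chac1 (4.52 TPM). The other neighbours in these orders did not overlap. Of the 10 members, 4 lie on chromosome 7, which holds 7.59% of the tested genes, and 2 on chromosome 2.

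The scaling of the libraries bears on every comparison with untreated cells. TPM fix each library's total, and the median tested gene was at -0.48 in both comparisons with untreated cells. After rescaling by the median ratio over genes that median was -0.01 for LPS and 0.01 for Met + LPS, and all members moved up. The directions of Atf4 and Atf5 in LPS over untreated and of Cebpg and Sesn2 in Met + LPS over untreated turned. Ddit3, Trib3, Sesn2 and Cebpg stayed below untreated levels with LPS under both scalings, at -1.20, -1.27, -1.82 and -0.71 after rescaling. In Met + LPS over LPS the median tested gene was at -0.03 as deposited and -0.02 after rescaling, and the fold changes of the members moved little, Trib3 being at 3.51 and Atf4 at 0.77 after rescaling.

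**Figure D3:**
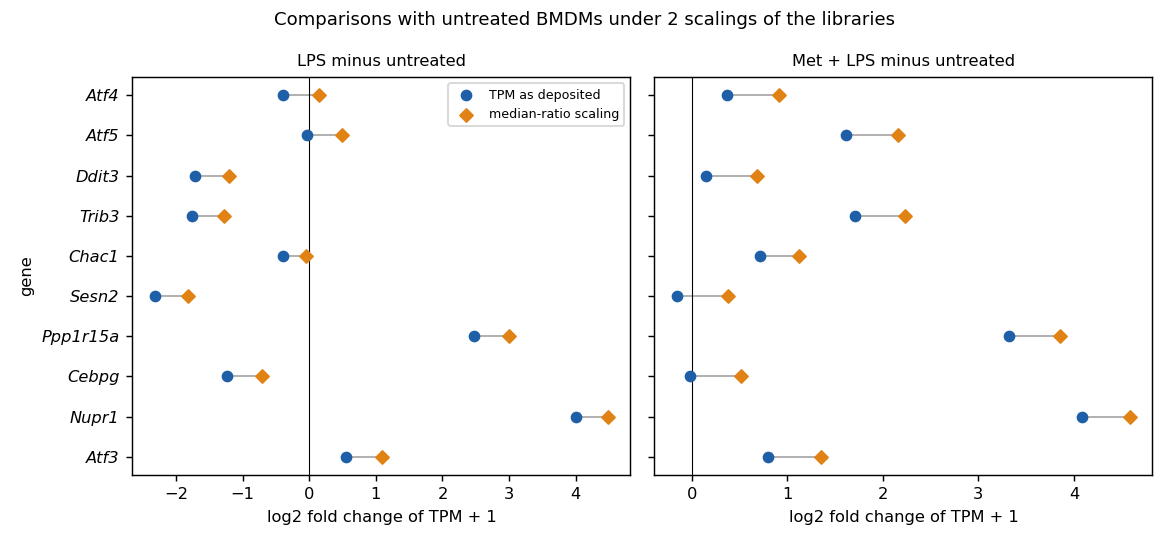
Log2 fold changes of the 10 members against untreated cells, LPS on the left and Met + LPS on the right, with the TPM as deposited (circles) and after median-ratio scaling (diamonds); grey lines join the 2 values of a gene. All diamonds lie to the right of their circles, and Atf4 and Atf5 on the left and Cebpg and Sesn2 on the right cross 0.

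Upstream of Atf4, 1 of the 4 eIF2α kinases was called between Met + LPS and LPS. Of all tested genes, 4.19% were called higher and 4.09% lower. Eif2ak4, which encodes the amino acid sensor GCN2, measured 24.0 and 24.4 TPM in untreated cells, 9.30 and 7.99 TPM with LPS and 16.9 and 18.0 TPM with Met + LPS, and was called higher in Met + LPS over LPS (log2 fold change 0.94, adjusted p = 0.00016). Eif2ak2, which encodes the interferon-inducible double-stranded RNA sensor PKR, measured 46.2 and 47.4 TPM, 150 and 165 TPM, and 101 and 101 TPM in the same order, with a log2 fold change of -0.63 between Met + LPS and LPS (adjusted p = 0.00017) that lay short of the fold cut-off. Eif2ak3, which encodes the endoplasmic reticulum sensor PERK, measured 21.3 and 22.6 TPM, 3.42 and 3.39 TPM, and 2.72 and 3.04 TPM, and was called lower in LPS over untreated (-2.38, adjusted p = 5.4e-07, and -1.90 with median-ratio scaling, short of the fold cut-off) while Met + LPS over LPS did not pass the test (-0.18, adjusted p = 0.09). Eif2ak1, which encodes HRI, the kinase that relays haem deficiency and mitochondrial stress, measured 51.6 and 53.6 TPM, 33.2 and 32.8 TPM, and 30.5 and 28.8 TPM, with -0.15 between Met + LPS and LPS (adjusted p = 0.035).

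In the whole list of 8 kinases and their upstream factors, 2 genes were called higher and 0 lower between Met + LPS and LPS. The shares of all tested genes were 4.19% and 4.09%. Impact, which encodes an inhibitor of GCN2 activation, was the other called gene, at 88.8 and 87.2 TPM in untreated cells, 10.3 and 10.0 TPM with LPS and 32.3 and 30.1 TPM with Met + LPS (log2 fold change 1.53, adjusted p = 8.6e-06). Dele1, which encodes the mitochondrial protein that activates HRI, was at 0.68 (adjusted p = 0.00011), just under the fold cut-off, and at 0.71 with median-ratio scaling. Of the 9 genes for subunits of eIF2 and its exchange factor eIF2B, 8 were tested. Here 1 was called higher and 0 lower, against the same 4.19% and 4.09%. The called gene was Eif2s2, for the β subunit of eIF2, at 44.8 and 43.0 TPM with LPS and 80.6 and 82.0 TPM with Met + LPS (0.88, adjusted p = 2e-05). Eif2s3x was at 0.37 (adjusted p = 0.0011) and Eif2b1 at -0.35 (adjusted p = 0.0041), both under the fold cut-off.

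Among the 4 other phosphatase subunits, 0 were called in Met + LPS over LPS. Of all tested genes, 4.19% were called higher and 4.09% lower. Ppp1r15b, the constitutive counterpart of Ppp1r15a, measured 70.3 and 72.7 TPM in untreated cells, 241 and 260 TPM with LPS and 196 and 179 TPM with Met + LPS, with a log2 fold change of -0.41 between the LPS-treated groups (adjusted p = 0.0015) where Ppp1r15a had 0.84. Ppp1ca was at -0.32 (adjusted p = 0.00047) and Ppp1cb at 0.23 (adjusted p = 0.010).

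Of the 4 C/EBP genes that encode possible partners, 3 were tested. In Met + LPS over LPS 1 was called higher and 1 lower, against 4.19% and 4.09% of all tested genes. Cebpa, a factor of myeloid differentiation, measured 124 and 115 TPM in untreated cells, 9.12 and 7.23 TPM with LPS and 19.2 and 19.9 TPM with Met + LPS, and was called higher in Met + LPS over LPS (1.17, adjusted p = 0.00018). Cebpd, an LPS-inducible factor that amplifies inflammatory genes, measured 8.53 and 9.39 TPM, 39.7 and 45.9 TPM, and 13.1 and 13.6 TPM in the same order and was called lower (-1.61, adjusted p = 3.1e-05). Cebpb was at 0.32 (adjusted p = 0.019).

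Downstream, a list of 32 textbook target genes of ATF4 or CHOP other than the members was examined, of which 26 passed the filter on low values. Between Met + LPS and LPS, 21 of these 26 were called higher and 1 lower, against 4.19% and 4.09% of all tested genes. The median log2 fold change of the 26 was 1.24, beside 1.16 for the members and -0.03 for all tested genes. Of the genes called higher, Aldh1l2 and Slc6a9 passed that filter only through the Met + LPS libraries, and so had to differ. Both are included in the 21, the 26 and the median, so that those 2 calls say nothing about the list. The median without them was not computed. Gdf15, which encodes a stress-induced cytokine, went from 32.8 and 36.5 TPM with LPS to 853 and 770 TPM with Met + LPS (4.51, adjusted p = 3.3e-06). Asns, for asparagine synthetase, went from 56.9 and 53.6 TPM to 303 and 314 TPM (2.46, adjusted p = 3.3e-06), and Slc7a11, for the cystine importer, from 10.7 and 10.2 TPM to 60.7 and 61.6 TPM (2.45, adjusted p = 4.4e-06). The gene called lower was Ddit4, for the mTORC1 inhibitor REDD1, at 3.52 and 4.37 TPM with LPS and 1.66 and 1.74 TPM with Met + LPS (-0.87, adjusted p = 0.0028), which is named here because it was the single one, after its values were seen. The 4 tested genes that were not called were Psat1, Wars, Herpud1 and Tnfrsf10b, likewise named after their values were seen.

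The ATF6 and XBP1 arms of the unfolded protein response, which raise chaperones of the endoplasmic reticulum, share the sensor PERK's compartment but not its route through eIF2α. Of their 17 genes examined, 0 were called higher and 2 lower between Met + LPS and LPS, against 4.19% and 4.09% of all tested genes, and without the fold cut-off 2 were higher and 12 lower, against 14.5% and 18.0%. Those 2 were Atf6 itself (0.53, adjusted p = 0.00012) and Dnajb9 (0.49, adjusted p = 0.0015), named after their values were seen. Besides chaperones, the 17 hold genes such as Atf6, Xbp1, Sel1l, Syvn1 and Edem1. The median log2 fold change was -0.33. Pdia4, a disulfide isomerase, measured 125 and 129 TPM in untreated cells, 90.1 and 84.9 TPM with LPS and 44.5 and 44.5 TPM with Met + LPS (-0.96 between the LPS-treated groups, adjusted p = 1.9e-05). Sdf2l1, a chaperone cofactor, went from 109 and 114 TPM with LPS to 58.4 and 57.4 TPM with Met + LPS (-0.93, adjusted p = 2e-05), and Calr, the lectin chaperone calreticulin, from 944 and 952 TPM to 579.5 and 602 TPM (-0.68, adjusted p = 3.3e-05), under the fold cut-off. That the list of target genes and the list of these 17 genes differ was not tested as such.

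**Figure D4:**
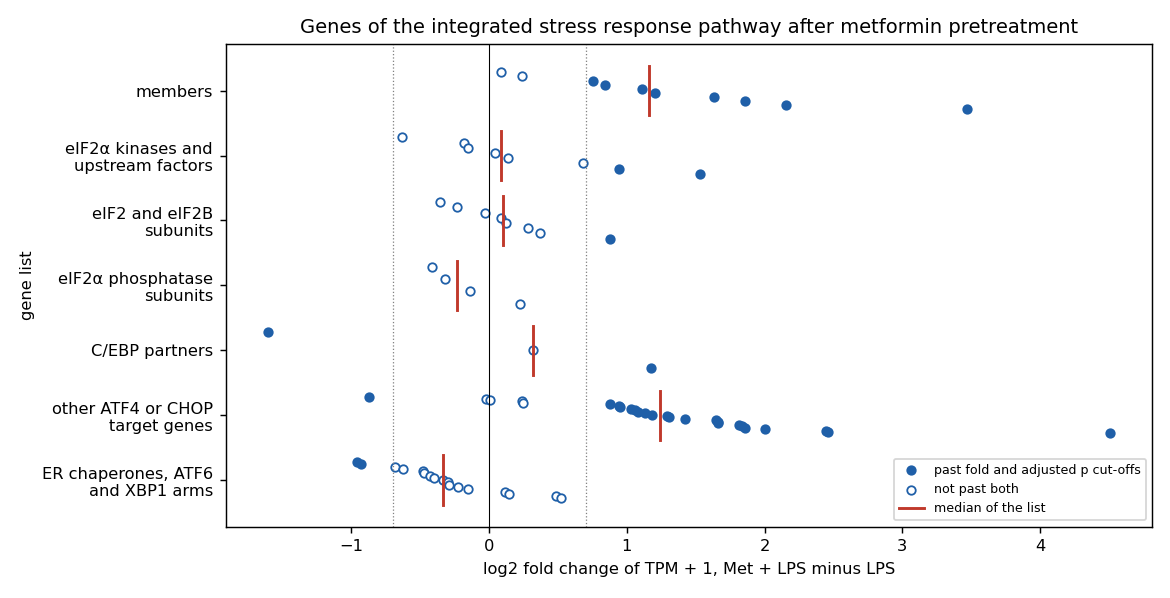
Log2 fold changes of TPM + 1 between Met + LPS and LPS for the tested genes of the members and of 6 further lists of the pathway; each point is a gene, filled where it passed both cut-offs, red lines are list medians, and dotted lines mark the fold cut-off of 0.7. Points of the members and of the other ATF4 or CHOP target genes lie mostly to the right of it (medians 1.16 and 1.24). The target genes include Aldh1l2 and Slc6a9, which passed the filter on low values only through the Met + LPS libraries. Points of the ATF6 and XBP1 arms lie mostly to the left of 0 (median -0.33), with Atf6 and Dnajb9 among those to its right.

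As a description of likeness, the genes whose log2(TPM + 1) ran most in parallel with Atf4 over the 6 libraries, among 6002 genes with a range of at least 1 on that scale, were Lrrc75a (Pearson r = 0.9996), the member Trib3 (0.9995), Gde1 (0.9993), Cd200r4 (0.9982) and Lonp1 (0.9981). Those most like Ddit3 were Tgif1 (0.9991), Gadd45a (0.9985), Pde4dip (0.9980), Rasd2 (0.9974) and Samd8 (0.9973). For Atf3 they were Ralgapa2 (0.9973), Creb5 (0.9962), Ets2 (0.9949), 9930017N22Rik (0.9949) and Rasgef1b (0.9946). The 6 points come from 3 groups and the same libraries, so that these coefficients mostly reflect the order of the 3 group means. With 2 libraries a group, an exact permutation test of 1 gene cannot give a two-sided p below 0.333, and the p-values above rest on the spread that limma pools over genes.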

How the data were processed

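The authors sequenced poly-A RNA (TruSeq, single-end, HiSeq2000), aligned it to GRCm38 with STAR 2.6.1d, used SAMtools 1.9 and counted reads per gene with featureCounts (Subread 1.6.3). They deposited TPM for 54532 genes, by library. The conversion to TPM and the treatment of reads in shared exons are not given in the sources used here. TPM times exon length (GENCODE, same build, 54495 genes) gave whole reads, within 0.02, for 96.9% to 97.2% of values under 1000 reads.

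The 12755 genes that reached 1 TPM in 2 or more libraries were tested on log2(TPM + 1) with limma 3.58.1 in R 4.3.3 (lmFit, eBayes with trend, all 6 libraries, no covariate, 3 residual degrees of freedom). The cut-offs for Met + LPS over LPS and for LPS over untreated were those of the study. For Met + LPS over untreated the study names none, and that of LPS over untreated was used. The test was also run on reads simulated from the mean LPS levels. These held no difference between LPS and untreated cells, so that run says nothing about that comparison. Tables were made in Python 3.11.15 with pandas 2.3.3 and numpy 2.4.6, and plots with matplotlib 3.10.9. The members and gene lists were chosen with earlier results of these data known. Genes named by rule are the members, the eIF2α kinases and the 3 largest changes between Met + LPS and LPS in each list. For Atf4, Ddit3 and Atf3 the 5 most correlated genes are named too. Cell type markers and genes that share exons with members are named besides. Ddit4, Psat1, Wars, Herpud1, Tnfrsf10b, Atf6 and Dnajb9 were named after their values were seen. Aldh1l2 and Slc6a9 were named for how they passed the filter, and Xbp1, Sel1l, Syvn1 and Edem1 as examples of their list. Gcn1 was matched through its older symbol.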

Additional observations from a re-analysis of the deposited data

How the results depend on the processing

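Each choice was changed in turn: the pseudocount (0.1), the filter (none, or at least 5 TPM), the scaling (median-ratio), the fit (compared groups only, a replicate block, no variance trend), the cut-offs (adjusted p-value 0.05, no fold), the libraries (each left out) and, chosen after seeing the data, the unit (limma voom on recovered reads). For Met + LPS over LPS, 8 members were called throughout, except 7 with at least 5 TPM, where Chac1 was not tested. Without a fold cut-off 9 were called, all of them higher. Of all tested genes, 4.19% were called higher with the fold cut-off and 14.5% without it. All 139 values of single members in this comparison kept their direction and their call by both cut-offs. By the adjusted p-value alone, Atf3 in this comparison and Chac1 in LPS over untreated did not pass in 9 of 14 and 11 of 13 alternatives. For LPS over untreated 3 were called, 2 with median-ratio scaling and 9 without a fold cut-off, 3 higher and 6 lower. Without that cut-off 16.2% of all tested genes were higher and 60.1% lower. For Met + LPS over untreated 2 were called, 4 with median-ratio scaling and 7 without a fold cut-off, all 7 higher. There the shares of all tested genes without it were 16.3% higher and 58.8% lower. Leaving out each library gave 8, 3 and 2 in every case. Median-ratio scaling turned Atf4 (0.14) and Atf5 (0.50) in LPS over untreated, and Sesn2 (0.37) and Cebpg (0.51) in Met + LPS over untreated. Leaving out a library turned Atf5 with LPS (range -0.11 to 0.054), and Sesn2 (-0.31 to 0.0018) and Cebpg (-0.084 to 0.035) in Met + LPS over untreated, all of which were not called. The cause was not tested. Replicate differences were nearly uncorrelated between groups (-0.004, 0.03 and 0.01), which does not settle whether replicate numbers pair the libraries. With the replicate block 8, 3 and 2 members were called, as without it. Depth limits Chac1 most, with 19 reads in each LPS library.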
